A study of Mus musculus with 2 samples.

Results

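The 50 genes described here encode the machinery that carries new secretory proteins into the endoplasmic reticulum (ER), cuts, glycosylates and folds them there, and senses or removes what does not fold. They were chosen by name, not by their values, as the rows whose stable gene identifier maps to the symbol, out of 43346 genes listed. They were measured by RNA-seq, labelled as poly-A, of liver from 8-week-old C57BL/6J mice, an inbred laboratory strain, in a single group of 2 stranded libraries, numbered as biological replicates 1 and 2. The tissue was pooled from male and female littermates without any treatment named, and both libraries carry the same donor identifier. Whether they came from separate animals is not given, so the differences given here may be purely technical. The title and description name poly-A RNA, while the molecule field says total RNA, and which holds was not tested. No contrast between conditions exists. Replicate 1 had 60770411 estimated reads and replicate 2 had 61688916, of which 438715 and 457882 fell on the 50 genes, 0.735% and 0.756% of all gene reads.

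The hepatocyte, the main cell type of the liver, secretes most plasma proteins, and these enter the ER while they are being made. The signal recognition particle brings the ribosome to its receptor, the SEC61 channel threads the chain through the membrane, signal peptidase removes the leader and oligosaccharyltransferase adds the glycan. Chaperones and disulfide isomerases then fold the chain, and misfolded chains are sent back to the cytosol for ER-associated degradation. When folding falls behind, the sensors IRE1 (Ern1), PERK (Eif2ak3) and ATF6 start the unfolded protein response (UPR), which raises the transcription of many of these genes. The tissue check held: the 10 hepatocyte markers together made up 8.70% and 8.29% of TPM in replicates 1 and 2, with albumin (Alb) at 32113 and 34763 TPM. TPM is the deposited level of a gene corrected for its length and for the depth of the library.

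All but 1 of the genes were well above the detection limit. At TPM 1 or more in both libraries, 49 of 50 were detected, against 24.7% of all genes listed. Together they held 0.602% ± 0.016 of TPM (SD, n = 2), with 0.590% in replicate 1 and 0.613% in replicate 2. Their median level was 49.3 TPM, against 10.8 TPM for the 10163 nuclear protein-coding genes detected in both libraries. Mean TPM was 100 or more for 13 genes, between 10 and 100 for 32, and below 10 for 4. The 8 most abundant genes, Hspa5, P4hb, Dad1, Herpud1, Pdia3, Ssr4, Calr and Sec61b, held 65.7% and 63.3% of the TPM of all 50 in replicates 1 and 2.

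**Figure D1:**
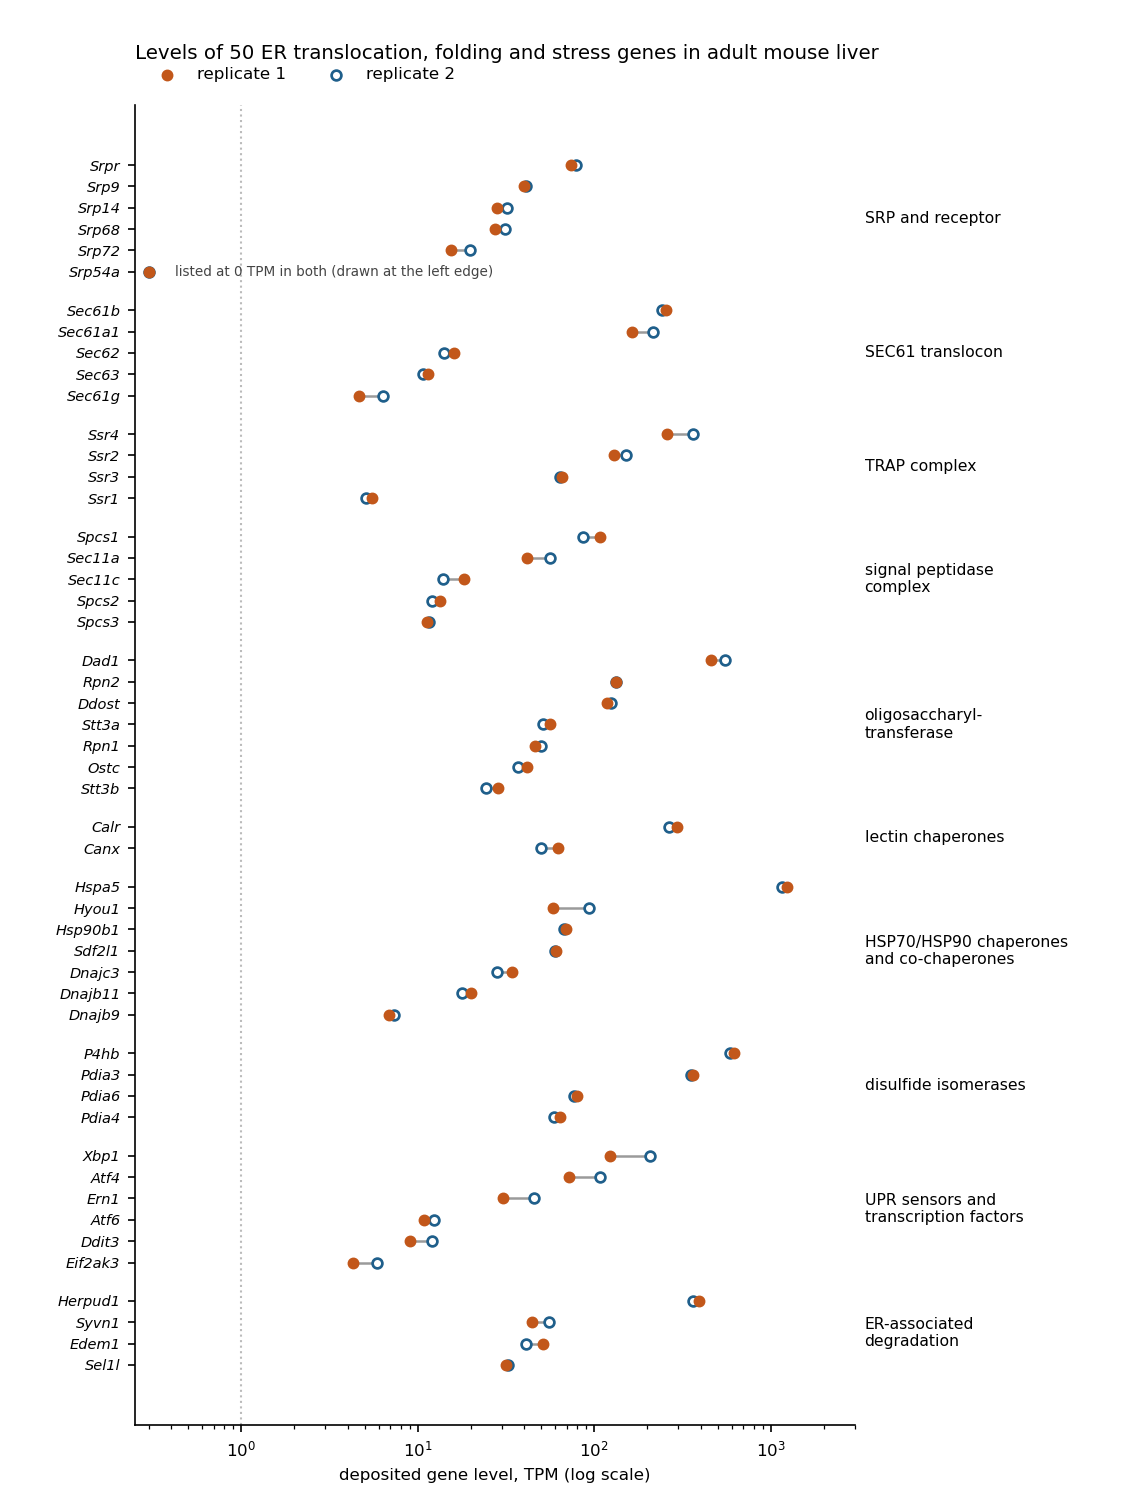
Deposited level of each of the 50 genes in TPM on a log axis, by role, with replicate 1 as filled and replicate 2 as open points joined by a line; the dotted line marks 1 TPM. Hspa5 leads at 1237 and 1157 TPM, 4 detected genes lie below 10 TPM on average, and Srp54a is listed at 0 in both libraries.

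The signal recognition particle (SRP) and its receptor were among the lower groups, at 0.0194% ± 0.0013 of TPM (SD, n = 2). Srpr, the receptor subunit that docks the particle at the membrane, was the highest at 74.1 and 78.3 TPM in replicates 1 and 2. Srp9 and Srp14, which together hold back elongation, were at 40.0 and 41.1 TPM and at 28.0 and 32.1 TPM. Srp68 stood at 27.3 and 31.3 TPM and its partner in the particle, Srp72, at 15.4 and 19.9 TPM. The signal-sequence binding subunit Srp54a, on chromosome 12 from 55080262 to 55115367, was listed at 0 reads in both libraries. A count of 0 allows up to 3 reads, or 0.0464 and 0.0457 TPM. Its near copy Srp54c held 14.2 and 14.8 TPM. The coding sequences of the models Srp54a-201 and Srp54c-202 are each 1512 bases long and differ at 6 of them, so that they are 99.6% identical. The deposited posterior spread of Srp54c, from reads shared with other entries, was 0.0436% of its count. How the authors' counting divided reads between the copies was not tested.

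The SEC61 channel had unequal parts. The beta subunit Sec61b was at 254 and 241 TPM and the pore-forming alpha subunit Sec61a1 at 163 and 216 TPM in replicates 1 and 2. The gamma subunit Sec61g was listed at only 4.66 and 6.35 TPM, from 131 and 171 reads, with a deposited posterior spread of 6.77% of its count from reads shared with other entries. The levels of Sec61b and Sec61g differed by 54.5-fold in replicate 1 and by 38.0-fold in replicate 2. Sec62 and Sec63, which help to move chains after their synthesis, were at 16.1 and 14.0 TPM and at 11.4 and 10.8 TPM. The TRAP complex, which sits beside the channel, spread as widely. Ssr4 was at 258 and 364 TPM, Ssr2 at 130 and 151 TPM and Ssr3 at 65.5 and 64.0 TPM. Ssr1 was at 5.53 and 5.11 TPM, so that the 4 subunits of 1 complex ranged over 46.7-fold and 71.3-fold in replicates 1 and 2. Much of this range lies in the lengths. The only model listed for Ssr1 has 9306 bases, and the most-read coding model of Ssr4 has 800. Ssr1 drew 2457 and 2290 reads and Ssr4 7539 and 10010. Whether the listed length describes the Ssr1 RNA present was not tested.

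Signal peptidase genes held 0.0186% ± 0.0008 of TPM (SD, n = 2). Spcs1, an accessory subunit, led at 107 and 86.7 TPM in replicates 1 and 2. The accessory subunits Spcs2 and Spcs3 were at 13.4 and 12.1 TPM and at 11.3 and 11.7 TPM. Of the alternative catalytic subunits, Sec11a had 41.6 and 56.1 TPM and Sec11c had 18.3 and 13.9 TPM. The ratio of Sec11a to Sec11c was therefore 2.27 in replicate 1 and 4.02 in replicate 2. With all reads divided by the length of each gene's protein-coding model, it was 1.57 in replicate 1 and 1.92 in replicate 2.

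Oligosaccharyltransferase genes held 0.0925% ± 0.0063 of TPM (SD, n = 2). Dad1, a small subunit, was at 457 and 549 TPM, well above every other gene of the complex. The ribophorins Rpn2 and Rpn1 were at 132 and 133 TPM and at 46.2 and 50.03 TPM, Ddost at 118 and 125 TPM, and Ostc at 41.6 and 37.0 TPM. Stt3a and Stt3b are the alternative catalytic subunits, the STT3A form working on chains as they pass the channel. Stt3a was listed at 55.8 and 51.0 TPM and Stt3b at 28.5 and 24.4 TPM, a ratio of 2.03 ± 0.09 (SD, n = 2). That ratio was 0.785 ± 0.149 (SD, n = 2) when all reads of a gene were divided by the length of its protein-coding model with the most reads. The order of the paralogs thus depended on the length used.

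Among chaperones, the HSP70 protein BiP (Hspa5), which holds unfolded chains in the ER lumen, was the most abundant of the 50 genes and 94th among nuclear protein-coding genes. Hspa5, on chromosome 2 from 34771970 to 34777547, had 1237 and 1157 TPM in replicates 1 and 2. Its HSP90 partner GRP94 (Hsp90b1) had 69.6 and 67.8 TPM. Hyou1, a nucleotide exchange factor for BiP, had 58.3 and 92.8 TPM. The J-domain co-chaperones Dnajc3, Dnajb11 and Dnajb9 were at 34.1 and 28.2, at 20.1 and 17.8, and at 6.85 and 7.30 TPM, and Sdf2l1, which works with Dnajb11, at 60.6 and 60.2 TPM. The lectin chaperones, which hold glycoproteins during folding, were represented by calreticulin (Calr) at 293 and 265 TPM and calnexin (Canx) at 61.9 and 50.1 TPM.

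The Hspa5 level rested on a short model. Hspa5-204 is a 477-base model annotated as a target of nonsense-mediated decay, on chromosome 2 from 34772099 to 34773307. Of its bases, 470 lie between positions 5 and 722 of the 2613-base coding model Hspa5-202, at its 5′ end. It was given 15794 and 14895 of the gene's 28954 and 30613 reads, 54.5% and 48.7%, and because it is short these made up 90.7% and 87.7% of the gene's TPM. Over the length of Hspa5-202 the same reads gave 255 and 268 TPM, which is 4.57-fold below the deposited mean. Pdia3, a disulfide isomerase for glycoproteins, behaved likewise: the 400-base processed transcript Pdia3-204, which lies between positions 109 and 587 of the coding model, held 43.3% and 47.9% of its reads but 90.3% and 91.4% of its TPM. On its coding model Pdia3 had 64.7 and 60.7 TPM, against 364 and 354 TPM as deposited. For Stt3a the short model Stt3a-202 of 602 bases held 10.6% and 7.58% of reads and 50.4% and 43.3% of TPM. Beyond these 3 genes, only Ern1 moved by 1.5-fold or more, which had 20.5 and 29.3 TPM on its coding model against 30.4 and 45.4 TPM as deposited, and 42 genes stayed within 1.25-fold. For Spcs1 the only model named as protein-coding, Spcs1-201, had 0 reads, while 94.2% and 91.2% of the gene's reads lay on a 702-base model that GENCODE M21 does not name, so its 65.3 TPM on that length, against 97.0 TPM as deposited, rests on a model without reads. With these lengths P4hb, at 642 and 614 TPM, became the most abundant of the genes, and the share of TPM of the chaperone group was 0.0516% ± 0.0015, against 0.146% ± 0.0039 as deposited (SD, n = 2 each). Which length describes the RNA molecules present was not tested.

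**Figure D2:**
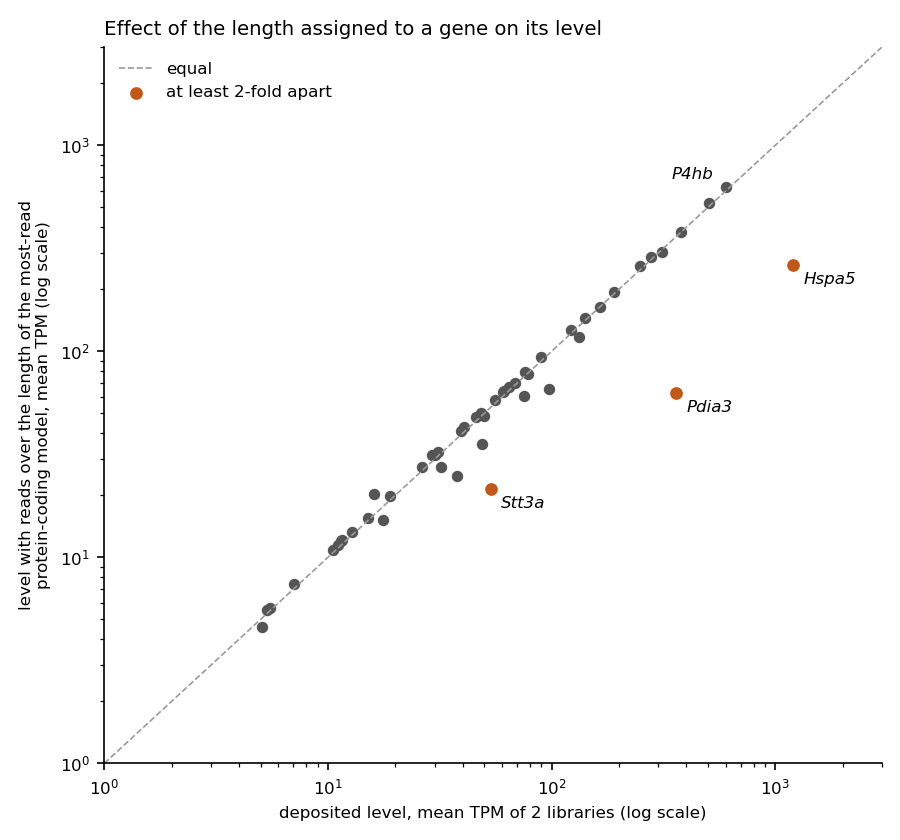
Mean level of each detected gene as deposited (x axis, TPM, log scale) against its level when all its reads are divided by the length of its protein-coding model with the most reads (y axis, TPM, log scale). Hspa5, Pdia3 and Stt3a, in orange, lie 4.57-fold, 5.73-fold and 2.49-fold below the dashed line of equality, while most genes lie on it.

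Several chaperone genes share a promoter sequence through which ATF6 and the factor NF-Y are known to act, the ER stress response element (ERSE). Promoter sequences from RefSeq on GRCm38.p6, from 250 bases before to 50 after the gene's start, were matched by symbol for 42 of the 50 genes. Atf6, Hyou1, Ostc, Sec11c, Sec61a1, Spcs3, Srp68 and Ssr2 had no entry. The element was searched as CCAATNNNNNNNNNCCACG on both strands with no mismatch. It was present in the promoters of 7 of the 42 genes, 16.7%, and of 37 of 27025 genes with a promoter sequence, 0.137%. The matches are printed 5′ to 3′ along the strand of the element with 5 bases on either side, because they show the promoter sequence that these chaperone genes have in common. Capitals mark the fixed bases of the element.
Hspa5: cttcaCCAATcggaggcctCCACGacggg
Hsp90b1, far match: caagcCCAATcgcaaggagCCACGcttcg
Hsp90b1, near match: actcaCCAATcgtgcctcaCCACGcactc
Dnajc3: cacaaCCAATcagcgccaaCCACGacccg
Calr: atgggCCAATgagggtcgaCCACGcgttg
Canx: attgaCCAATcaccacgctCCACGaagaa
Pdia6: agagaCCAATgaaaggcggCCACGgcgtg
Syvn1: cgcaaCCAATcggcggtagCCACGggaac
The printed stretch of Hspa5 is chr2:34772020-34772048 on the plus strand, and its element starts 65 bases before the gene's RefSeq start. All distances given here are counted from RefSeq starts. The GENCODE start of Hspa5 given above, 34771970, lies upstream of this stretch, which is thus inside the gene's GENCODE extent. The elements of Calr and of the near match in Hsp90b1 lie on the strand opposite to the gene, and the others on the gene's own strand. Their far ends lie between 44 bases before the start, in Syvn1, and 212 bases before it, in the far match of Hsp90b1. Of the 7 genes, 3 are chaperones or co-chaperones, 2 are the lectin chaperones, 1 is a disulfide isomerase and 1 belongs to ER-associated degradation. No gene of the SRP, SEC61, TRAP, signal peptidase, oligosaccharyltransferase or UPR sensor groups that had a promoter sequence held the element. The related ERSE-II, searched as ATTGGNCCACG on both strands, was present in Herpud1 and Dnajb11, 4.76% of the 42 genes, against 0.0444% of all promoters. No promoter of the 42 genes held both. In Herpud1, whose protein helps to assemble the degradation complex, the ERSE-II lay 52 bases before the start and is printed the same way, followed by that of Dnajb11, which lies after the start.
Herpud1: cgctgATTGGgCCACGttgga
Dnajb11: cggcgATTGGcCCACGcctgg
The element known for ATF4 with C/EBP factors, TGATGCAA, was found in Herpud1 alone of the 42 genes, against 1.03% of all promoters. The core of the XBP1 element, TGACGTGG, was in none of them and in 0.714% of all promoters. A match is a description of letters, not of a bound site. ERSE and ERSE-II were already known from ER stress genes, and the 50 genes were chosen by name as genes of that kind. Their higher share than in all promoters is therefore not an independent result.

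The disulfide isomerases, which form and rearrange the bonds between cysteines, had a median level of 219 TPM as deposited and of 70.9 TPM on the coding-model lengths, where the Pdia3 level is the one that moves. P4hb, protein disulfide isomerase itself, drew more reads than any other of the 50 genes, 80459 and 77111 in replicates 1 and 2, and was at 618 and 587 TPM. Pdia6 was at 80.0 and 76.6 TPM and Pdia4 at 63.8 and 59.0 TPM. Together with Pdia3, described above, the group held 0.1102% ± 0.0035 of TPM (SD, n = 2).

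UPR sensors and their transcription factors had a group median of 24.8 TPM. Xbp1, the factor activated by IRE1, was at 123 and 207 TPM in replicates 1 and 2. Atf4, the factor translated when PERK acts, was at 71.6 and 108 TPM. The sensor Ern1 was at 30.4 and 45.4 TPM, Atf6 at 10.9 and 12.3 TPM and Eif2ak3 at 4.29 and 5.88 TPM. Ddit3, the stress factor CHOP, was detected at 9.09 and 12.02 TPM, from 309 and 413 reads. All 6 had the lower TPM in replicate 1, and their sum was 249.1 TPM there and 391 TPM in replicate 2. In bulk tissue, fewer cells of a type and less RNA per cell cannot be told apart.

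IRE1 acts on Xbp1 by cutting a short intron out of its mRNA, which shifts the reading frame. The intron was located in the model Xbp1-201 as the 26 bases between paired cut sites inside the coding sequence whose removal lengthened the reading frame, with 267 codons as annotated and 371 after removal. It lies in exon 4, in coding sequence, at chr11:5524279-5524304 on the plus strand of GRCm38. It is printed in capitals with 2 bases on either side, because the form with and without it is what the UPR changes in Xbp1.
Xbp1 intron: cgCAGCACTCAGACTATGTGCACCTCTGca
Xbp1-201, which holds these bases, drew 97.6% and 96.0% of the gene's reads in replicates 1 and 2. The model Xbp1-202 ends before them. Whether the other listed models of the gene hold them was not tested. The junction counts, on mm9 and summed over both libraries, hold the 4 ordinary introns of Xbp1, identified by their lengths of 722, 1313, 771 and 300 bases, with 425, 92, 928 and 2823 reads from the first to the last. The smallest gap listed among the 352887 junctions of that file is 31 bases, so a 26-base gap is below what it reports. Spliced and unspliced Xbp1 were not told apart here.

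Of the genes of ER-associated degradation, Herpud1 was at 393 and 362 TPM in replicates 1 and 2, the fourth most abundant of the 50. Syvn1, the ubiquitin ligase of the complex, was at 44.3 and 55.4 TPM, and its partner Sel1l at 31.4 and 32.5 TPM. Edem1, which marks misfolded glycoproteins for removal, was at 50.9 and 41.2 TPM. The group held 0.0505% ± 0.0020 of TPM (SD, n = 2).

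Genes that work beside these 50 were described from 10 lists of 121 genes, and 113 of them were detected in both libraries. Their median level was 18.6 TPM. In targeting, Naca, which binds new chains at the ribosome, Sgta and Bag6, which serve tail-anchored proteins, led at 115 and 111, 104 and 111, and 74.2 and 103 TPM in replicates 1 and 2. Beside the translocon, the membrane insertion subunits Emc10 and Emc4 were at 191 and 248 TPM and at 74.2 and 67.6 TPM, and Tmem208 at 73.3 and 78.2 TPM. The oligosaccharyltransferase partners Ost4, Krtcap2 and Tmem258 were at 164 and 144, 131 and 171, and 67.1 and 115 TPM. In the glycan cycle, Mcfd2 and Lman1, a cargo receptor pair for export, were at 269 and 232 TPM and at 67.6 and 74.2 TPM, and the glucosidase subunit Ganab at 93.8 and 95.4 TPM.

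The list of further isomerases and related redox enzymes was led by Qsox1, a sulfhydryl oxidase, at 398 and 467 TPM. Ppib, a proline isomerase, was at 189 and 200 TPM, and the peroxiredoxin Prdx4 at 144 and 123 TPM. Chaperone partners were led by Selenof at 197 and 152 TPM, Serp1, which sits at the translocon, at 89.7 and 76.5 TPM, and Manf at 36.2 and 64.4 TPM. Manf drew 3555 and 3589 reads, so its difference in TPM came from the length assigned and not from reads. In degradation, Aup1 was at 259 and 279 TPM and the unfoldase Vcp at 137 and 136 TPM. Among other UPR factors, Creb3l3, a membrane-bound factor of hepatocytes, was at 242 and 265 TPM, Nfyc, a subunit of NF-Y, at 58.8 and 64.8 TPM, and Creb3 at 40.1 and 53.2 TPM. The IRE1 paralog Ern2, known from gut and airway, was at 0.03 and 0.09 TPM. In the integrated stress response, Atf5 and Cebpb were at 455 and 360 TPM and at 168 and 181 TPM, Ppp1r15b, which restores translation, at 20.7 and 20.6 TPM, and the targets Trib3, Chac1, Asns and Atf3 at 4.05 and 4.62, 3.44 and 5.28, 1.28 and 1.99, and 0.46 and 0.70 TPM. Of the mRNAs known as substrates of IRE1-dependent decay, Bloc1s1, Sparc and Hgsnat were at 190 and 165, 149 and 134, and 14.6 and 13.8 TPM.

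The libraries were compared for each gene with a two-sided exact conditional binomial test on rounded counts, scaled by TMM, with Benjamini-Hochberg adjustment over the 14533 genes with at least 20 reads, so the test covers counting error only. Of the 49 genes tested, 39 differed at an adjusted p under 0.05, against 57.6% of all genes tested. Of these, 12 were lower in replicate 1, against 28.6% of all genes, and 27 were higher, against 29.0%. Of the 10162 detected nuclear protein-coding genes tested, which have more reads, 2957 were lower and 3646 higher. Of the 49 genes only Xbp1 was at least 1.5-fold apart, against 20.7% of all genes tested and 9.63% of those protein-coding genes. The median absolute log2 ratio was 0.23, against 0.26 over all genes tested and 0.21 over those protein-coding genes. When the spread between the libraries themselves was estimated, as a biological coefficient of variation of 24.2%, edgeR's exact test called 0 of the genes and 162 of all genes. At an unadjusted p under 0.05 were 0 of the genes and 851 of all genes. The spread came from the same 2 libraries that it was then used to compare, so few calls were built in. These counts cannot decide whether a gene differs.

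Every one of the 6 UPR sensors and factors had a negative log2 ratio of replicate 1 over replicate 2, as had 7323 of all 14533 genes tested. Of the 6, 5 passed the exact test, while 28.6% of all genes tested were called lower. In the partner list of other UPR sensors, proteases and factors, 4 of 13 tested were lower and 5 higher. Xbp1 had a log2 ratio of -0.60 (adjusted p = 1.3e-269, exact test, 2 libraries) and Atf4 of -0.47 (adjusted p = 2.07e-75, exact test). Ern1, Ddit3 and Eif2ak3 followed at -0.37, -0.27 and -0.23, while Atf6, at -0.04, did not pass (adjusted p = 0.276, exact test). The other genes lower in replicate 1 were Ssr4 and Sec61a1, each at -0.26, Hyou1 at -0.25, Syvn1 at -0.23, Dad1 at -0.15, Srp72 at -0.11 and Ssr2 at -0.09.

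Higher in replicate 1 were all 4 disulfide isomerases, with log2 ratios between 0.21 and 0.24, and both lectin chaperones, Canx at 0.45 and Calr at 0.29. Of 7 chaperones and co-chaperones, 5 were higher, led by Dnajc3 at 0.40, with Hspa5 at 0.06. Of 5 signal peptidase genes 3 were higher, led by Spcs1 at 0.41, and of 7 oligosaccharyltransferase genes 4, led by Stt3b at 0.35. Sec62, Sec63 and Sec61b of the translocon were at 0.32, 0.22 and 0.17, and Ssr1 and Ssr3 of the TRAP complex at 0.25 and 0.16. Edem1, Herpud1 and Sel1l of the degradation group were at 0.44, 0.34 and 0.26. Srpr, at 0.05, was the SRP group's gene higher in replicate 1. Of the 7 genes with an ERSE printed above, 6 were higher in replicate 1 with TMM, and Syvn1 was lower. Among all 49 genes tested 27 were higher, and 29.0% of all genes tested. Of the 6, Hspa5 turned lower and Hsp90b1 did not pass under total-read or under spike-in scaling. A link between the element and the ratio was not tested.

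**Figure D3:**
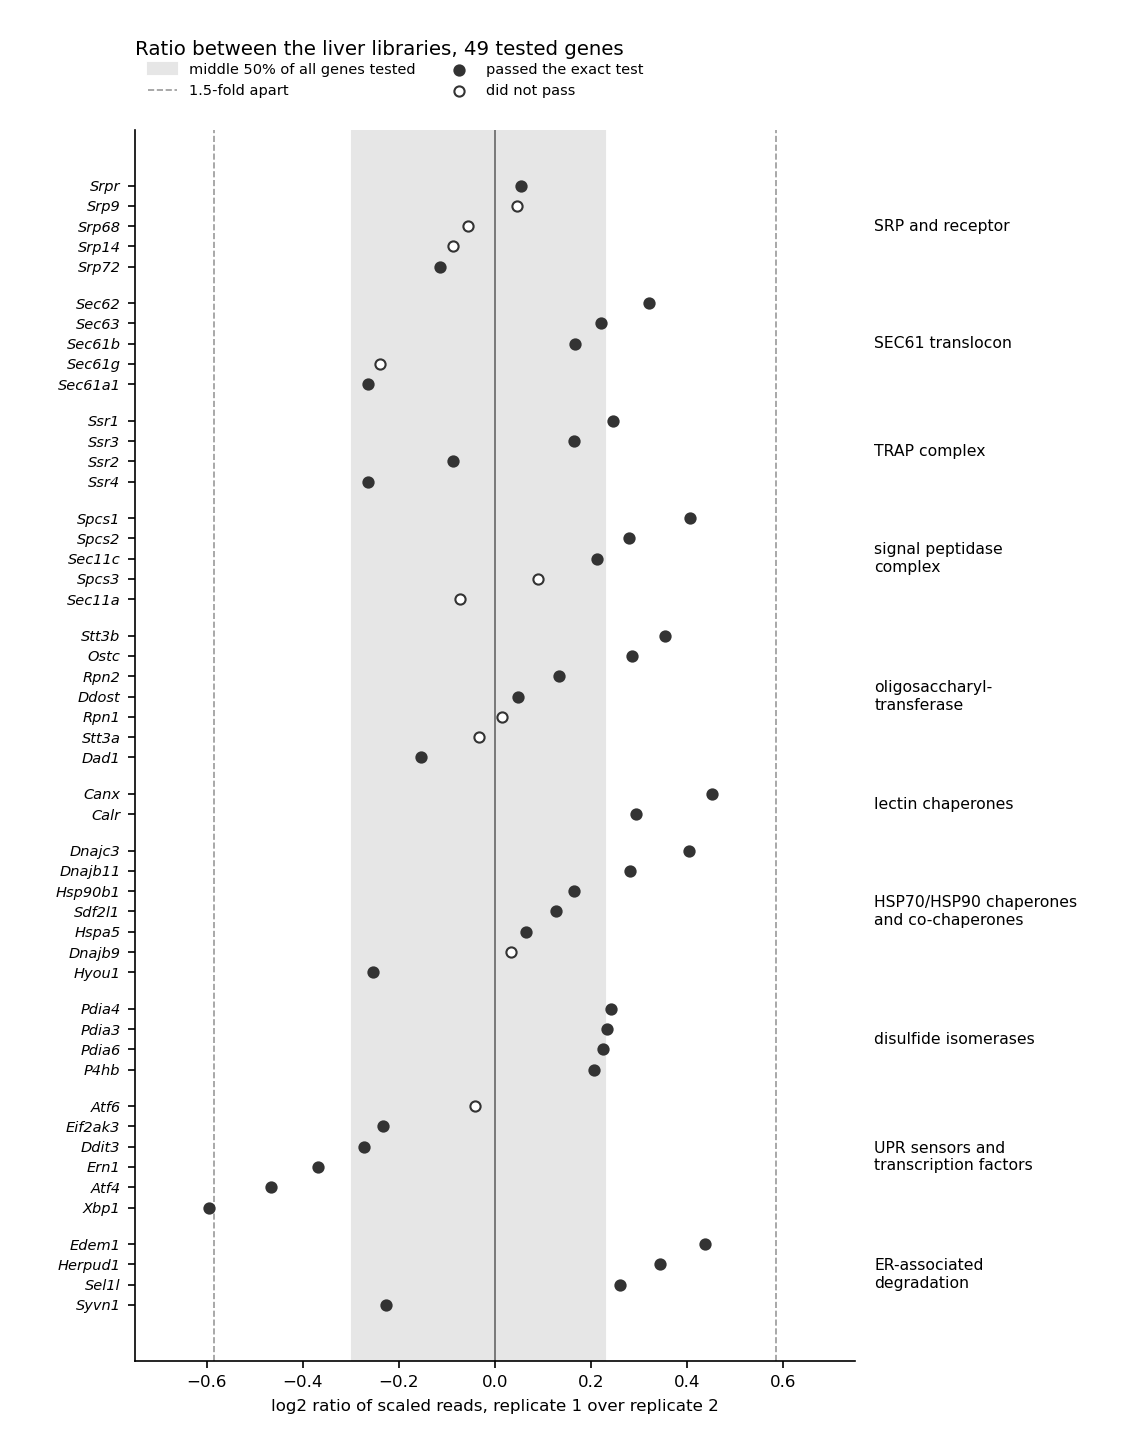
Log2 ratio of scaled reads of replicate 1 over replicate 2 for the 49 tested genes by role; filled points passed the exact test, the grey band holds the middle 50% of all genes tested and dashed lines mark 1.5-fold. The UPR sensors and transcription factors all lie left of 0, from -0.60 for Xbp1 to -0.04 for Atf6, and the disulfide isomerases all lie right of 0.

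The directions depended in part on the scaling. With total gene reads in place of TMM, 21 genes were lower and 18 higher in replicate 1, and with spike-in totals 23 were lower and 17 higher. The median log2 ratio of the 49 genes was 0.09 with TMM, -0.03 with total reads and -0.06 with spike-ins, while that of all genes tested was close to 0 with TMM, -0.13 with total reads and -0.15 with spike-ins. Under all 4 scalings, DESeq2's size factors included, the same 12 genes were lower and 17 genes were higher in replicate 1. Those 17 hold all 4 disulfide isomerases and both lectin chaperones. Hspa5 changed side, at -0.06 with total reads and -0.09 with spike-ins, and so did Srpr and Ddost. Hsp90b1, Rpn2, Sdf2l1, Sec11c, Sec61b, Sec63 and Ssr3 did not pass under at least 1 of the scalings.

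Proteasome subunits and ribosomal proteins, which serve the cytosol, gave a scale for these values. The 31 proteasome genes had a median level of 59.7 TPM, and 28 of them were higher in replicate 1 and 1 was lower, with a median log2 ratio of 0.22. The 83 ribosomal protein genes had a median level of 182 TPM, and of 80 tested 39 were higher and 25 lower, with a median of 0.06 that lies below 0 with total reads or spike-ins. A ratio above 0 in replicate 1 was therefore not particular to the ER genes. In the 10 lists of partner genes, 49 of 118 tested were higher and 27 lower in replicate 1. Vldlr, a lipoprotein receptor induced through PERK, was the only partner at mean TPM 5 or more that was at least 2-fold apart, at 7.70 and 3.33 TPM (log2 ratio 1.40, adjusted p = 3.06e-65, exact test). Of the 18 genes of the integrated stress response list, 7 were higher and 4 lower, against 29.0% and 28.6% of all genes tested. The list holds kinases and factors as well as known targets of ATF4. Of its genes named here, Asns and Chac1 were lower, with log2 ratios of -0.66 and -0.49. Atf5, Ppp1r15b and Vldlr were higher, and Cebpb, Trib3 and Atf3 did not pass.

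Other cell types moved with the libraries as well. All 10 Kupffer cell markers were lower in replicate 1, with a summed level of 221 TPM there and 369 TPM in replicate 2, and so were 8 of 9 sinusoidal endothelial markers, with sums of 141 and 203 TPM. Of 5 red blood cell genes 4 were lower, with sums of 1290 and 2110 TPM. Of 9 tested plasma cell and B cell genes 5 were lower and 1 was higher, with Igkc at 14.5 and 28.1 TPM, Jchain at 0.49 and 0.72 TPM and Tnfrsf17 listed at 0 in both. The sum of that list, 384 and 335 TPM, was mostly Sdc1, which hepatocytes also express, and Derl3 of that list is also a degradation partner above. Of 7 tested pancreas acinar genes 6 were higher in replicate 1, with sums of 28.7 and 21.6 TPM, and of 6 cholangiocyte markers 3 were higher, with sums of 21.5 and 18.8 TPM. Stellate cell markers were lower for 5 of 8 and higher for 1, with sums of 102 and 117 TPM, and hepatocyte markers were higher for 8 of 10 and lower for 2. These counts of lower and higher are with TMM, and those under the other scalings were not taken. The hepatocyte markers had a median log2 ratio of 0.12, with Alb at 0.01, so their directions can depend on the scaling. The part of these cells in the ratios of the ER genes was not tested. Base composition also went with the ratio: over 48 of the 49 genes with a sequence, Pearson's r of the log2 ratio with GC content was -0.48, and over 5441 genes at mean TPM 10 or more it was -0.12, as descriptions across genes measured in the same 2 libraries. Its part was not tested.

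Of 36 genes with 2 or more isoforms listed, 34 were led by the same isoform in each library, against 86.9% of all genes. The exceptions were Sel1l and Sec11a. The 6300-base model Sel1l-201 held 60.4% and 20.6% of the gene's TPM in replicates 1 and 2, and the 6150-base model Sel1l-210, which shares 6132 bases with it, held 12.9% and 44.4%. For Sec11a the coding model Sec11a-201 held 64.9% and 43.0%, and the retained-intron model Sec11a-210 held 31.2% and 44.0%.

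Retained-intron models are annotated transcripts in which an intron was left in. They were listed for 27 of the genes, and 25 had reads on them. The share of a gene's reads on them was lower in replicate 1 in 24 of these 25, against 76.4% of all genes with such reads. Summed over the 25 genes it was 1.66% in replicate 1 (95% Wilson interval 1.61 to 1.71) and 4.41% in replicate 2 (4.33 to 4.49), while over all such genes it was 5.92% and 8.07%. Sec11c had 12.2% (9.81 to 15.0) and 35.4% (31.6 to 39.3), Ssr4 had 7.503% (6.93 to 8.12) and 21.9% (21.1 to 22.7), and Hsp90b1 had 4.53% (4.12 to 4.99) and 13.7% (13.0 to 14.5). Herpud1 had 0.854% (0.758 to 0.960) and 4.04% (3.81 to 4.28). For Ddit3 the intervals overlapped, at 6.15% (3.97 to 9.40) and 8.23% (5.95 to 11.3). The intervals were apart for 16 of the 25 genes, against 44.2% of all such genes, and for 15 of the 23 at mean TPM 10 or more, against 54.9% of all such genes at that level. They hold the error of counting alone. PCR copies of a molecule cannot be told apart in these counts, and the error of dividing reads among overlapping models is left out. Eif2ak3 was the exception in direction, from 20 and 6 reads, and is among the 16 genes with intervals apart. By TPM its retained-intron share was instead lower in replicate 1, at 4.0% and 13.2%. Of the genes lower in replicate 1, Ssr4, Syvn1, Sec61a1, Hyou1, Xbp1, Srp72 and Ddit3 all had a smaller retained-intron share there, and so did Calr, Herpud1, Pdia6 and Hsp90b1, which were higher. For Srp72, Ddit3 and 7 others the intervals of the libraries overlapped.

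**Figure D4:**
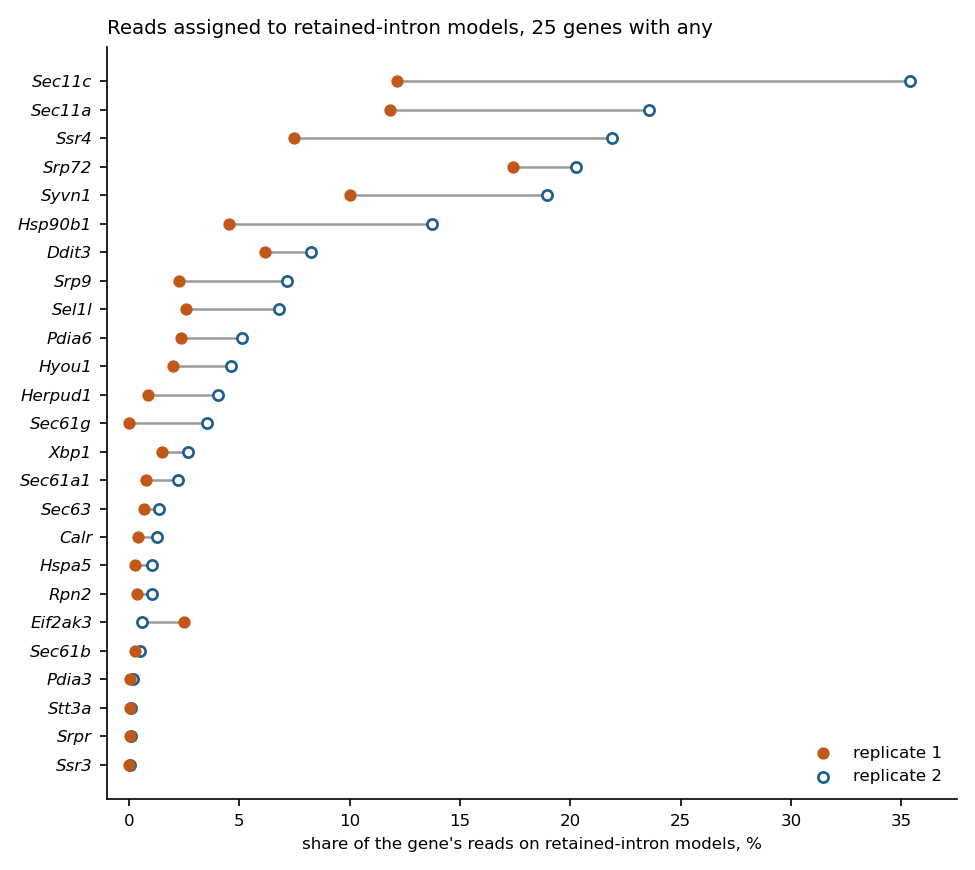
Share of each gene's estimated reads on retained-intron models, in percent, for the 25 genes with any such reads, with replicate 1 as filled and replicate 2 as open points. Replicate 1 lies left of replicate 2 for every gene but Eif2ak3, most widely for Sec11c at 12.2% and 35.4%.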

How the data were processed

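RNA-seq of liver, labelled as poly-A, 2 libraries of 1 group, was analysed from the deposited gene and transcript tables. Reads were assigned by the authors to GENCODE M4 on mm10, per the file headers and the deposited notes, with no tool named there. The deposited estimated counts need not be whole, because reads matching several entries are shared, and were rounded before testing. The deposited TPM values are counts over effective length, scaled to 1 fixed sum over all entries of a library, spike-ins included. The deposited percent is an isoform's share of its gene's TPM, and the deposited posterior standard deviation of the count is a score for shared reads. The deposited junction counts are on mm9, pooled over both libraries.

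Symbols came from GENCODE M21 by stable identifier (42462 of 43346 genes). Detection meant TPM 1 or more. After a minimum of 20 reads, edgeR 4.0.16 under R 4.3.3 gave TMM factors. Each gene was tested with a two-sided exact conditional binomial test (scipy 1.17.1, Benjamini-Hochberg, threshold 0.05), a comparison of these libraries alone. The test was tried on simulated data that varied by counting error only, so a wider spread between libraries was not covered there. Log2 ratios are of replicate 1 over replicate 2 with a prior count of 0.5, from reads, so they can differ from ratios of TPM. DESeq2 1.42.0 gave other size factors. Retained-intron and coding types of models came from GENCODE M21. Of the partner symbols, Get1 was left out because its older-symbol match was another gene. Every one of the 50 genes is given; of each partner list the 3 genes of highest mean TPM are named, with any at mean TPM 5 or more that passed at 2-fold or more; 1 gene so chosen is not reported here. Ern2, Trib3, Chac1, Asns and Atf3 were named after their values were seen. The genes, lists and tests were chosen with earlier results of these data known.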

Additional observations from a re-analysis of the deposited data

How the results depend on the processing

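The share of TPM held by the 50 genes, 0.602% in the text, was 0.728% of the TPM of nuclear protein-coding genes, 0.621% with annotated in place of effective lengths, and 0.477% with the length of each gene's protein-coding model with the most reads, an alternative chosen after seeing the data; leaving out each replicate in turn gave 0.590% and 0.613%. The denominator and the lengths are part of how these shares are made. Of 39 genes that passed the exact test, 1 remained with a ratio of at least 1.5-fold. None passed edgeR's exact test with the estimated spread, whose smallest unadjusted p over the genes was 0.232. That spread came from the same 2 libraries, so this outcome cannot decide whether a gene differs. Genes at least 1.5-fold apart numbered 1 with TMM, against 2, Xbp1 and Atf4, when either total reads or spike-in totals set the scale; the scaling factors differ by construction. Under the other alternatives 39 or 40 genes were called, 47 or 49 were detected, and 34 of 36 or 32 of 34 kept the leading isoform. When reads rather than TPM ranked the isoforms, Hspa5 and Sel1l were the 2 genes that switched. The chaperone share, the isomerase share, the signal peptidase share (0.0186% as deposited, 0.0146% on coding models, with the Spcs1 model there at 0 reads) and the Hspa5 to Hsp90b1 ratio (17.4 as deposited, 13.7 with annotated lengths, 3.71 on coding models) depended on the lengths; the cause was not tested. No paired analysis was possible because there is 1 group. Depth limits Sec61g most, at 131 and 171 reads, and then Ddit3, at 309 and 413.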
